A study of Homo sapiens with 9 samples.

Results

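The comparison described here sets 2 boron-containing titanium surfaces together against bare titanium alloy. Its members are all 9 libraries of the series: 6 coated libraries, 3 from TiB2 and 3 from the HA coating, against 3 from bare alloy. MG-63, a human osteosarcoma line used as an osteoblast model, was grown for 7 days on bare Ti6Al4V (bare alloy), on Ti6Al4V with TiB2, or on boronized Ti6Al4V with HA (HA coating), and total RNA was sequenced. The labels describe the line as epithelial-like, gave every library the same batch and left the TiB2 libraries out of the submitters' final analysis. Cells on all 3 surfaces, controls included, had the same osteogenic medium of DMEM with 10% FBS, 100 nM dexamethasone, 10 mM beta-glycerophosphate and ascorbic acid at 50 µg/mL. The cells are a tumour line, and no surface carried HA without boron. The question was which genes move in the same direction on both surfaces.

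A gene was called shared where it passed edgeR's quasi-likelihood test of the 6 coated against the 3 bare alloy libraries (Benjamini-Hochberg adjusted p under 0.05) and all 6 coated libraries lay on 1 side of all 3 bare alloy libraries. Below, "rose" and "fell" are used of such genes. The test is of the mean of both surfaces, so such a gene need not pass on each surface alone. CXCL11, ADAMTS2 and CHRD, for example, did not pass on TiB2 alone (edgeR adjusted p = 0.221, 0.105 and 0.0646). PHEX and NOTUM did not pass on the HA coating alone (edgeR adjusted p = 0.0703 and 0.0951). Levels are CPM, a gene's reads scaled to a common library size after TMM normalization, and a log2 fold change of 1 is a 2-fold difference. Of 21213 tested genes 3062 (14.4%) were shared, 1462 upward (6.89%) and 1600 downward (7.54%). The test alone called 1634 genes higher (7.7%) and 1794 lower (8.46%). These percentages are the background against which each gene group is read.

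Cells that meet a surface, a wound or microbial products can switch on NF-kB, a family of transcription factor dimers held in the cytoplasm by inhibitor proteins. Once freed, the dimers enter the nucleus and raise chemokine, cytokine and prostaglandin genes, along with the inhibitors that shut the response off again. Osteoblasts in turn lay down a matrix led by type I collagen, to which smaller collagens, proteoglycans and matricellular proteins bind, and alkaline phosphatase then frees phosphate for mineral. In osteoblast cultures division and matrix production are usually described as successive phases.

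Totals ranged from 58464306 to 72542556 counts per library, and a count of 0 allows up to 3 counts, 0.045 to 0.0549 CPM, which covers counting error only. Whether the 3 libraries of a surface are separate cultures is not stated in the labels. The p-values therefore rest on spread between libraries that may be technical only. Some libraries stood apart within their surface. In bare alloy replicate 1, 8 ribosomal RNA rows took 6.48% of counts, against 0.617% and 1.07% in the other bare alloy libraries. In the coated libraries the share was 0.0832% to 0.197%, below every bare alloy library. What part of the comparison goes with this share was not tested. A trend with GC content and length accounted for 23.8% and 17.7% of the deviation of HA replicates 2 and 3, and for at most 8.75% elsewhere. Genes of T cells (CD3D, CD3E, LCK) were at 0 in all HA libraries and in bare alloy replicate 1, and at 0.893 to 2.72 CPM in the other 5 libraries. ENPEP was reversed, at 0 in those 5 and at 1.69 to 1.87 CPM in the 4. A count of list members above 0 is also given without bare alloy replicate 1 and HA replicates 2 and 3 (the 3 libraries), or without 1 library, where it changes by over 1.5 times. Leaving out the 3 libraries was chosen after seeing the data. Where a list had none in a direction, these cases added at most 1 gene, except in the lists of oxidative phosphorylation and ribosomal proteins.

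The shared changes ranged widely in size. Their folds are those of genes chosen by the same values, which favours large folds. Among the 1462 rises the median fold was 1.74, 362 were at least 2-fold on each surface and 126 at least 4-fold. Among the 1600 falls the median fold was 1.93, with 568 at least 2-fold and 126 at least 4-fold on each surface. With genes at 0 in every library of the lower side (24 rises, 6 falls) set at their lower bounds, the medians stayed at 1.74 and 1.93, and 361 and 114 rises were at least 2-fold and 4-fold. A clear space separated the surfaces for 152 rises and 215 falls, whose nearest coated and bare alloy libraries differed by at least 2-fold. Protein-coding genes made up 91.9% of the rises and 79.9% of the falls, against 69.7% of tested genes. On the log2 scale the rises had a median of 0.71 on TiB2 and 0.89 on the HA coating, and the falls -0.89 and -1.0. Every one of these values uses the same 3 bare alloy libraries. Without 1 of the 9 libraries the shared rises numbered 794 to 1935 and the falls 914 to 2007, lowest without bare alloy replicate 3 and highest without HA replicate 1. Of the 3062 shared genes 1440 (47%) stayed shared with each library left out. Without bare alloy replicate 1 there were 836 and 1047 and without replicate 2 833 and 974, and without the 3 libraries that stand apart there were 2005 and 2097.

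**Figure D1:**
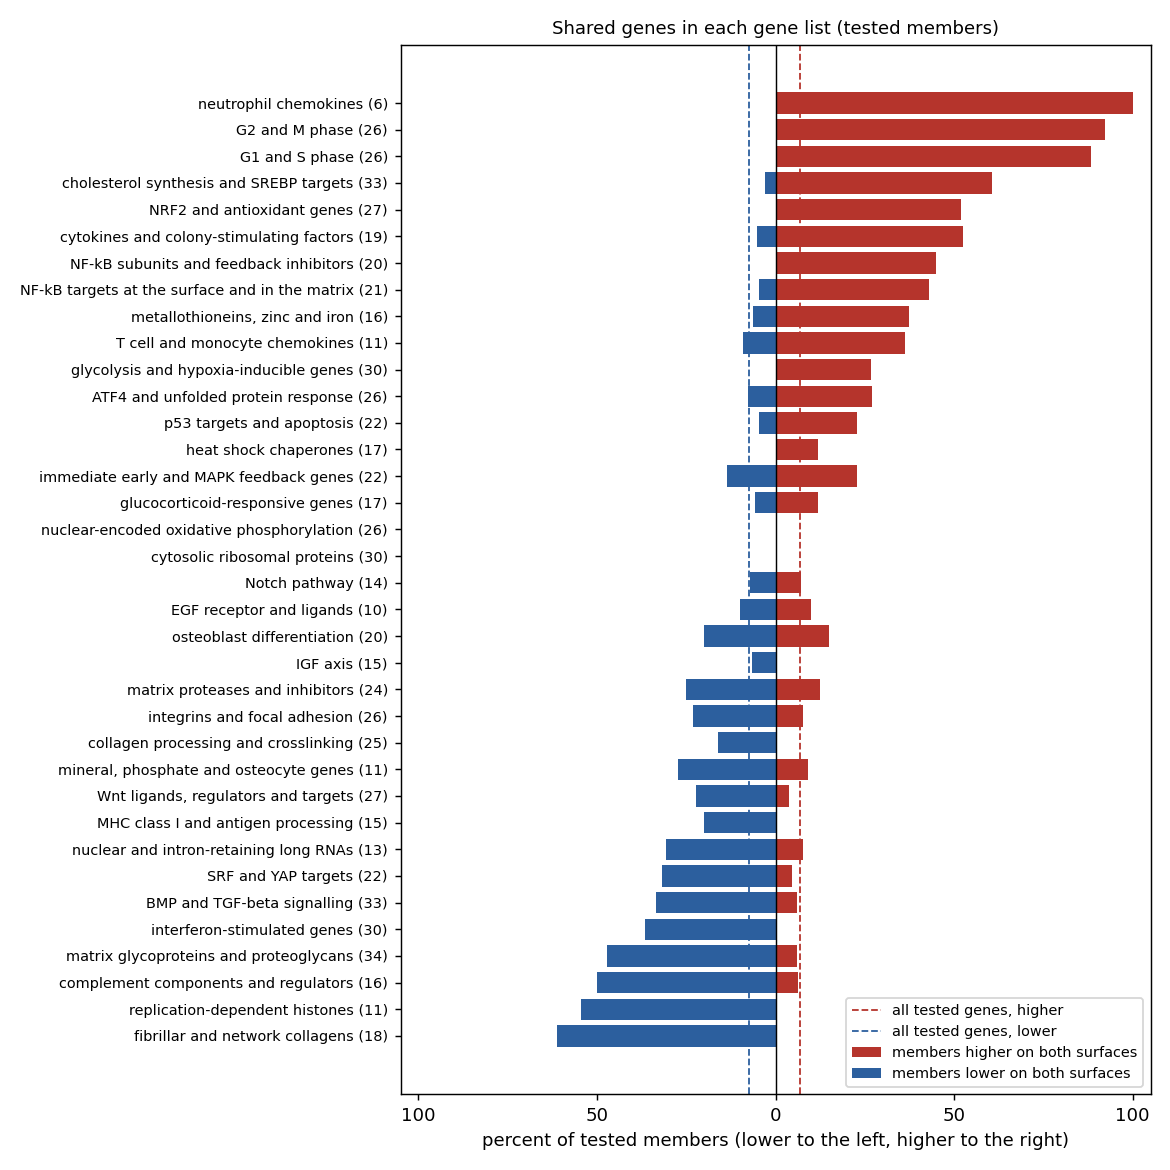
Percent of the tested members of each gene list that were shared, higher on both surfaces to the right (red) and lower to the left (blue), with the number of tested members in parentheses; dashed lines mark all tested genes, 6.89% higher and 7.54% lower. Neutrophil chemokines and both cell cycle lists stand at the top, and collagens, histones, complement and matrix glycoproteins at the bottom.

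Chemokines that attract neutrophils had the highest median rise of the 44 gene lists examined. All 6 tested neutrophil chemokine genes were shared rises, with a median log2 fold change of 4.63 against -0.002 over all tested genes (medians 4.26 on TiB2 and 5.00 on the HA coating), and all 6 were shared rises with any 1 library left out. Their promoters are shown because 5 of the 6 hold the same NF-kB-type motif at a similar place. The sequences run from 110 to 51 bases before the annotated start, 5′ to 3′ on the gene's strand, from RefSeq on GRCh38.p14, with the motif GGGNNTTTCC in capitals.
CXCL1: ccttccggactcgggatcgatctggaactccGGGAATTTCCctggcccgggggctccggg
CXCL2: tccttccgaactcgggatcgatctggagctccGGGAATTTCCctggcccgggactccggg
CXCL3: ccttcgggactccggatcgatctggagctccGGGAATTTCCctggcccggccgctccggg
CXCL5: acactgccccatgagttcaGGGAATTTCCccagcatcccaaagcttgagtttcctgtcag
CXCL6: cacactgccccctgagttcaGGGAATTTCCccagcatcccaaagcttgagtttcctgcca
IL6: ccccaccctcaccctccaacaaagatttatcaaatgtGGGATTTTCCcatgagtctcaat

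The windows lie at chr4:73869283-73869342 (plus strand), chr4:74099246-74099305 (minus), chr4:74038740-74038799 (minus), chr4:73998728-73998787 (minus), chr4:73836568-73836627 (plus) and, for IL6, chr7:22727090-22727149 (plus). The motif's first base lay 79, 78 and 79 bases before the start in CXCL1, CXCL2 and CXCL3, 91 and 90 in CXCL5 and CXCL6, and 73 in IL6. The first 3 genes, near-identical copies, share most letters of the window, as do CXCL5 and CXCL6. GGGNNTTTCC was searched on both strands in the 250 bases before each start and was found in 608 of 35116 promoter windows (1.73%). Of the shared rises 1115 had a window and 46 of these (4.13%) held the motif, against 23 of 1106 shared falls (2.08%) and 2.49% of all tested genes with a window. In the NF-kB subunit and inhibitor list 5 of the 7 rises with a window held it: NFKB2, NFKBIA, NFKBIZ, TNFAIP3 and BIRC3. The same held for 2 of 7 rises among cytokines, 1 of 3 among T cell and monocyte chemokines and 0 of 5 among NF-kB targets at the surface and in the matrix. No match was found in the windows of CXCL8, IL24 or PTGS2. Only this pattern was searched, so a related sequence that differs from it would be missed. A match describes letters in this window and was not tested for binding.

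CXCL8, the best known neutrophil attractant (ENSG00000169429, chromosome 4, 73740519 to 73743715, GRCh38), lay at 4.63, 5.75 and 5.22 CPM on bare alloy, 376, 140 and 373 on TiB2 and 163, 241 and 352 on the HA coating. The lowest coated library stood 24.4-fold above the highest bare alloy library (log2 fold change 5.71 ± 0.42, SE; edgeR adjusted p = 1.17e-05). CXCL3 (ENSG00000163734, chromosome 4, 74036589 to 74038807) lay at 0.549, 0.564 and 0.61 CPM on bare alloy, 29.6, 7.27 and 20.7 on TiB2 and 25.8, 22.3 and 19 on the HA coating. CXCL3 rose 36-fold over both surfaces (log2 fold change 5.17 ± 0.45, SE; edgeR adjusted p = 3.36e-05). All 6 coated libraries were again far above bare alloy, with TiB2 replicate 2 the lowest coated library for both genes. CXCL1 (ENSG00000163739, chromosome 4, 73869393 to 73871308) lay at 2.34, 2.18 and 2.36 CPM on bare alloy, 57.3, 23.6 and 51.6 on TiB2 and 79, 67.7 and 96.4 on the HA coating. CXCL1 rose 26.1-fold over both surfaces (log2 fold change 4.71 ± 0.31, SE; edgeR adjusted p = 5.38e-06). CXCL6 (ENSG00000124875, chromosome 4, 73836640 to 73838760) lay at 2.52, 2.6 and 3.61 CPM on bare alloy, 75.6, 36.3 and 54.9 on TiB2 and 84.1, 81.6 and 87.2 on the HA coating. CXCL6 rose 23.5-fold over both surfaces (log2 fold change 4.55 ± 0.26, SE; edgeR adjusted p = 2.19e-06). For CXCL1 and CXCL6 every HA library was above every TiB2 library, but that difference did not pass its test (edgeR adjusted p = 0.182 and 0.248). CXCL2 and CXCL5 rose less, with log2 fold changes of 3.91 and 2.68. Reads of CXCL1, CXCL2 and CXCL3 can be split between copies, so their separate values are uncertain.

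**Figure D2:**
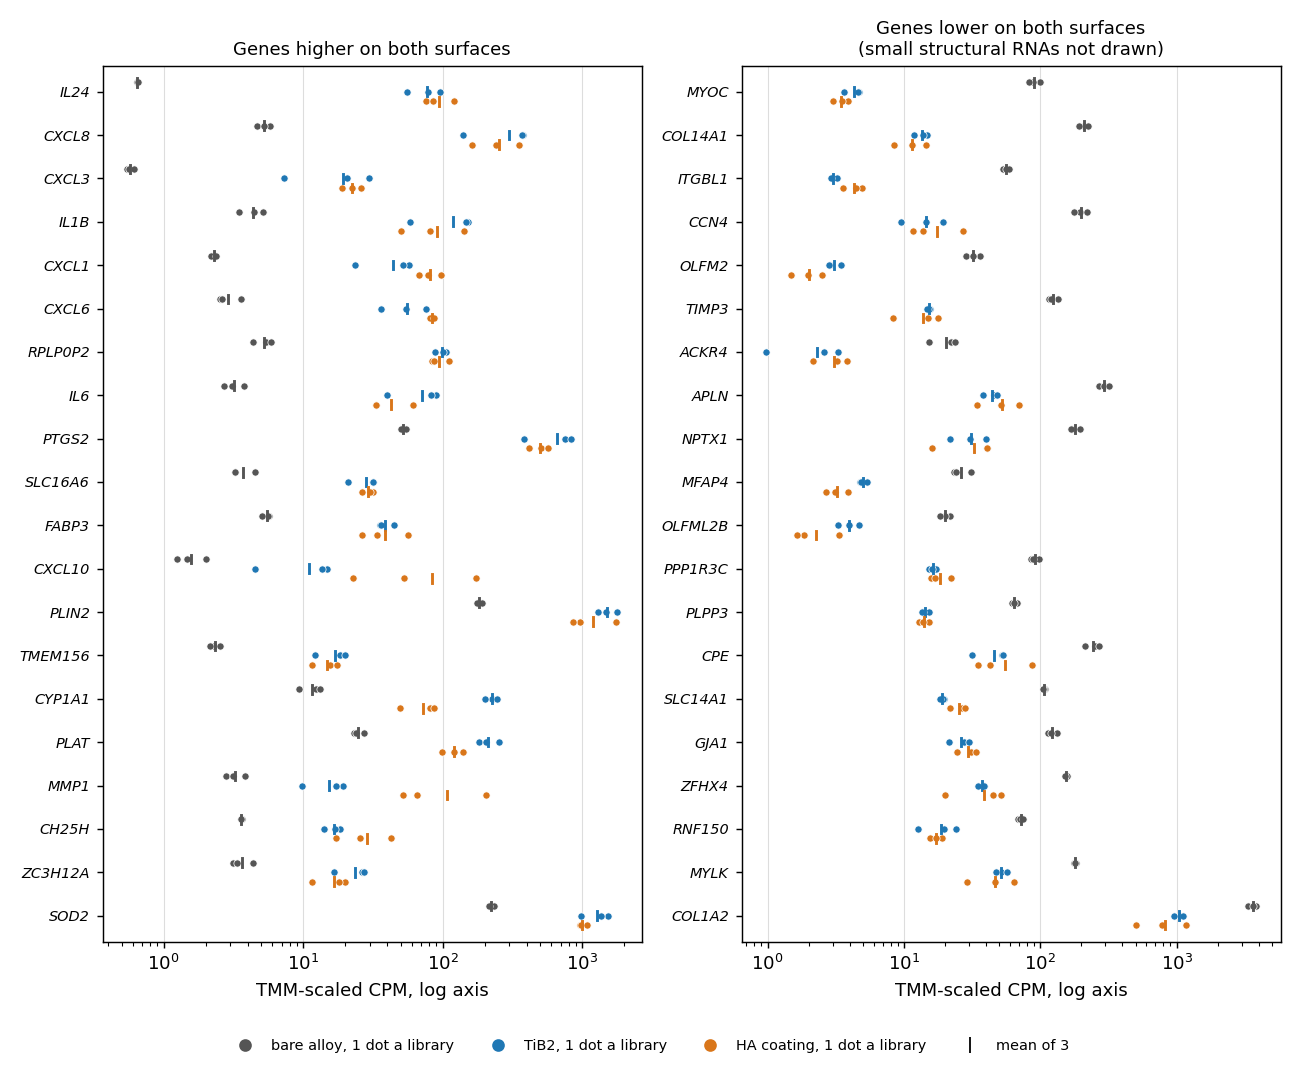
CPM on a log axis of 20 genes higher (left) and 20 lower (right) on both surfaces; each dot is a library and each vertical bar the mean of 3. Every coated library lies on 1 side of the 3 bare alloy libraries for each gene, by the rule that chose them. The small structural RNAs, whose fold sizes depend on bare alloy replicate 1, are not drawn.

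Of the T cell and monocyte chemokines 4 of 11 tested rose and 1 fell. CXCL10, which attracts activated T cells (ENSG00000169245, chromosome 4, 76021118 to 76023497), lay at 2.01, 1.46 and 1.24 CPM on bare alloy, 14.7, 4.53 and 13.6 on TiB2 and 22.9, 52.9 and 174 on the HA coating. It was above bare alloy in all 6 libraries, with HA replicate 3 far above the rest (log2 fold change 4.27 ± 0.68, SE; edgeR adjusted p = 0.00175; 3.70 without HA replicate 3 and 3.55 without the 3 libraries that stand apart). Its relative CXCL11 lay at 1.2 CPM on bare alloy, 3.25 on TiB2 and 27.1 on the HA coating (log2 fold change 2.96 ± 0.64, SE; edgeR adjusted p = 0.00925; 2.44 without HA replicate 3 and 1.70 without the 3 libraries). For CXCL11 the nearest coated and bare alloy libraries differed by only 1.03-fold. CCL2, which attracts monocytes, lay at 110 ± 14.5 CPM on bare alloy, 273 ± 71.1 on TiB2 and 361 ± 106 on the HA coating (SD, n = 3 each; log2 fold change 1.51 ± 0.22, SE; edgeR adjusted p = 0.00113). CCL20, which attracts CCR6-bearing lymphocytes, was at 0 in all bare alloy libraries and at 4.58, 1.58 and 5.68 CPM on TiB2 and 0.383, 0.579 and 0.931 on the HA coating. Measured against the floor of 3 counts in a bare alloy library, CCL20 was at least 71.9-fold higher on TiB2 and at least 11.5-fold higher on the HA coating (edgeR adjusted p = 0.00034). CXCL12, which holds blood stem cells in the marrow, fell (log2 fold change -1.45).

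Cytokine genes were the other side of the same rise: 10 of 19 tested cytokines and colony-stimulating factors rose and 1, IL7, fell. IL24, an IL-10 family cytokine (ENSG00000162892, chromosome 1, 206897443 to 206904139), had the largest rise of the genes named by size, at 0.64, 0.642 and 0.659 CPM on bare alloy, 96.1, 55.6 and 78.6 on TiB2 and 75.4, 85.2 and 121 on the HA coating. The 3 bare alloy libraries agreed closely, and the lowest coated library stood 84.4-fold above them (log2 fold change 7.03 ± 0.28, SE; edgeR adjusted p = 2.14e-07). Leaving out each library in turn moved it between 6.92 and 7.12. IL1B, a fever-inducing cytokine that itself activates NF-kB (ENSG00000125538, chromosome 2, 112829751 to 112836816), lay at 4.41, 5.17 and 3.48 CPM on bare alloy, 151, 58.7 and 148 on TiB2 and 50.4, 81.2 and 141 on the HA coating. IL1B rose 23.9-fold over both surfaces (log2 fold change 4.58 ± 0.44, SE; edgeR adjusted p = 6.75e-05). IL6, which drives the acute phase response and osteoclast formation (ENSG00000136244, chromosome 7, 22725884 to 22732002), lay at 3.11, 2.71 and 3.74 CPM on bare alloy, 89.1, 39.6 and 82.7 on TiB2 and 33, 33 and 60.9 on the HA coating. IL6 rose 17.1-fold over both surfaces (log2 fold change 4.10 ± 0.34, SE; edgeR adjusted p = 2.87e-05). For both genes the nearest coated and bare alloy libraries were 9.74-fold and 8.81-fold apart, and TiB2 replicate 2 was the lowest TiB2 library. LIF, an IL-6 family member, lay at 50.4 ± 3.45 CPM on bare alloy, 297 ± 57.6 on TiB2 and 208 ± 51.8 on the HA coating (SD, n = 3 each; log2 fold change 2.30 ± 0.20, SE; edgeR adjusted p = 3.13e-05).

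Both myeloid growth factors CSF2 and CSF3, and the alarmin IL33, were at 0 in all 3 bare alloy libraries. CSF2 was at 5.21, 2.21 and 3.7 CPM on TiB2 and 0.927, 0.595 and 1.05 on the HA coating, at least 67.6-fold and 15.6-fold above the floor (edgeR adjusted p = 7.08e-05). CSF3 was at 2.55, 0.572 and 1.29 and 0.543, 0.642 and 3.03 CPM, at least 26.8-fold and 25.6-fold (edgeR adjusted p = 0.00255). IL33 was at 1.46, 0.247 and 1.34 and 0.687, 1.36 and 1.86 CPM, at least 18.5-fold and 23.7-fold (edgeR adjusted p = 0.00128). So these 4 genes, CCL20 included, were detected in coated libraries only, at low levels.

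NF-kB's own subunits and feedback inhibitors rose by smaller steps: 9 of 20 tested genes rose and none fell (median 0.93; 14 without the 3 libraries that stand apart). ZC3H12A, an RNase that destroys cytokine mRNAs, lay at 4.34, 3.16 and 3.38 CPM on bare alloy, 26.5, 16.5 and 27.5 on TiB2 and 19.9, 11.6 and 18 on the HA coating. ZC3H12A rose 5.44-fold over both surfaces (log2 fold change 2.44 ± 0.24, SE; edgeR adjusted p = 8.99e-05). BIRC3, a ubiquitin ligase of TNF signalling, lay at 4.83, 9.45 and 7.83 CPM on bare alloy, 30.9, 24 and 33.2 on TiB2 and 25.2, 35.8 and 27.3 on the HA coating. BIRC3 rose 3.99-fold over both surfaces (log2 fold change 2.0 ± 0.23, SE; edgeR adjusted p = 0.000212). Both were higher in each coated library than in each bare alloy library. RELB, the subunit of the non-canonical arm, rose 3.75-fold on TiB2 and 2.78-fold on the HA coating (log2 fold change 1.69 ± 0.21, SE; edgeR adjusted p = 0.000353), and NFKBIZ, a nuclear co-regulator, rose 3.39-fold on TiB2 and 2.36-fold on the HA coating (log2 fold change 1.5 ± 0.14, SE; edgeR adjusted p = 7.19e-05). RELA, the main activating subunit, had a log2 fold change of 0.10 and did not pass (edgeR adjusted p = 0.707).

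Of NF-kB targets at the surface and in the matrix 9 of 21 tested rose and 1 fell (none fell without any 1 bare alloy library or without the 3 libraries). PTGS2, the inducible cyclooxygenase that makes prostaglandin precursors (ENSG00000073756, chromosome 1, 186671791 to 186680423), lay at 51.1, 50.2 and 54.2 CPM on bare alloy, 754, 385 and 829 on TiB2 and 508, 416 and 565 on the HA coating. The lowest coated library, TiB2 replicate 2, was 7.12-fold above the highest bare alloy library (log2 fold change 3.46 ± 0.25, SE; edgeR adjusted p = 1.25e-05). SOD2, the mitochondrial superoxide dismutase, lay at 218, 232 and 214 CPM on bare alloy, 1519, 982 and 1354 on TiB2 and 957, 975 and 1078 on the HA coating. SOD2 rose 5.13-fold over both surfaces (log2 fold change 2.36 ± 0.16, SE; edgeR adjusted p = 8.62e-06). Both serum amyloid genes SAA1 and SAA2, acute phase proteins and near-identical copies whose reads can be split, were low. SAA1 lay at 0.146, 0.047 and 0 CPM on bare alloy, 1.15, 0.464 and 1.04 on TiB2 and 0.847, 0.955 and 2.46 on the HA coating, with a log2 fold change of 4.12 that was 5.43 without bare alloy replicate 1 and 3.53 without bare alloy replicate 3. SAA2 lay at 0, 0 and 0.0494 CPM on bare alloy, 0.63, 0.479 and 0.28 on TiB2 and 0.447, 0.439 and 1.31 on the HA coating. Its log2 fold change of 4.97 was 8.2 without bare alloy replicate 3, the only bare alloy library above 0.

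The remaining large rises were not cytokines. SLC16A6, a transporter of the monocarboxylate family, lay at 3.24, 3.26 and 4.53 CPM on bare alloy, 31.8, 20.8 and 31.5 on TiB2 and 26.4, 31.5 and 30.1 on the HA coating. SLC16A6 rose 7.79-fold over both surfaces (log2 fold change 2.96 ± 0.20, SE; edgeR adjusted p = 7.28e-06). FABP3, a fatty acid binding protein, lay at 5.67, 5.62 and 5.09 CPM on bare alloy, 35.3, 36.3 and 44.8 on TiB2 and 26.5, 34 and 56 on the HA coating. FABP3 rose 7.11-fold over both surfaces (log2 fold change 2.83 ± 0.24, SE; edgeR adjusted p = 3.04e-05). On the log2 scale FABP3 rose by the same 2.83 on each surface. RPLP0P2, a pseudogene of a ribosomal protein gene, lay at 4.37, 5.42 and 5.92 CPM on bare alloy, 106, 101 and 88.6 on TiB2 and 111, 83.7 and 87 on the HA coating (log2 fold change 4.2 ± 0.17, SE; edgeR adjusted p = 2.30e-07). Its reads can be split between near-identical copies, so its values are uncertain. Next by size, and named after their values were seen, came PLIN2, which coats lipid droplets (182 CPM on bare alloy, 1515 on TiB2 and 1191 on the HA coating), TMEM156 (2.32 CPM on bare alloy, 16.9 on TiB2 and 14.9 on the HA coating) and PLAT, the tissue plasminogen activator (24.8 CPM on bare alloy, 213 on TiB2 and 120 on the HA coating). CH25H, which makes 25-hydroxycholesterol, lay at 3.59 CPM on bare alloy, 16.5 on TiB2 and 28.4 on the HA coating.

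**Figure D3:**
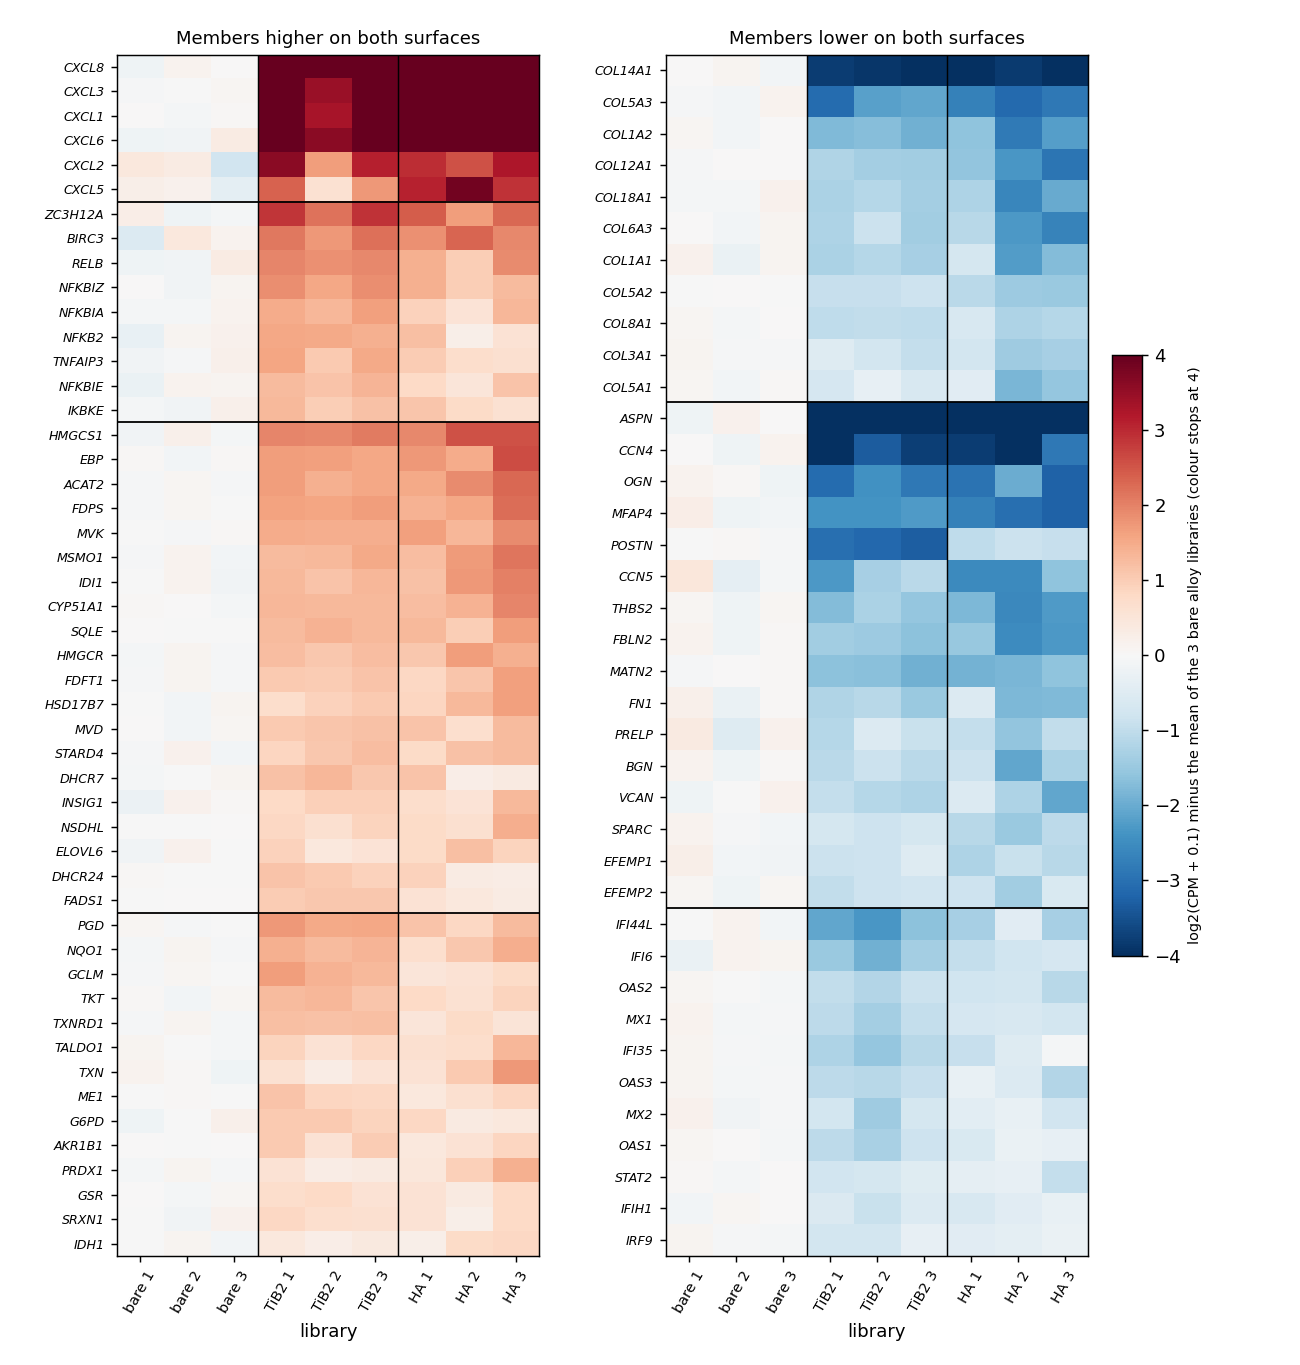
Shared members of 7 gene lists in each library, as log2(CPM + 0.1) minus the mean of the 3 bare alloy libraries, with the colour stopping at 4. From top to bottom the left panel holds neutrophil chemokines, NF-kB subunits and inhibitors, cholesterol synthesis and NRF2 genes, and the right panel collagens, matrix glycoproteins and interferon-stimulated genes. CXCL8, CXCL3, CXCL1 and CXCL6 reach the end of the scale in most coated libraries, and POSTN is the row in which TiB2 and the HA coating differ most visibly.

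By the same ranking 7 of the 12 largest falls were small structural RNAs. RN7SL2, a copy of the signal recognition particle RNA, lay at 212, 10 and 5.75 CPM on bare alloy, 2.19, 1.56 and 1.2 on TiB2 and 2.24, 3.02 and 1.88 on the HA coating. RNA5-8SN3, a 5.8S ribosomal RNA gene, lay at 57, 0.533 and 0.428 CPM on bare alloy, 0.283, 0.232 and 0.249 on TiB2 and 0.24, 0.329 and 0.36 on the HA coating. Bare alloy replicate 1 stood far above every other library for these genes. Without it RN7SL1, RN7SL2, RN7SL4P and RN7SL5P kept their calls. Their log2 fold changes were then -1.73, -2.0, -2.03 and -2.07, against -5.28, -5.26, -4.82 and -5.21 with it. RNA5-8SN2, RNA5-8SN3 and 5_8S_rRNA lost their calls without it, at -0.99, -0.78 and -0.80, against -5.24, -6.09 and -4.84. These are multicopy genes whose reads can be split.

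The largest falls of other genes were of secreted and matrix proteins. MYOC, which encodes myocilin (ENSG00000034971, chromosome 1, 171635417 to 171652688), lay at 99.1, 88.1 and 82.7 CPM on bare alloy, 3.61, 4.65 and 4.57 on TiB2 and 3, 3.87 and 3.51 on the HA coating. Its nearest libraries were 17.8-fold apart (log2 fold change -4.55 ± 0.13, SE; edgeR adjusted p = 2.39e-08). ITGBL1, a secreted protein with integrin-like repeats (ENSG00000198542, chromosome 13, 101452667 to 101720856), lay at 52.9, 56.3 and 59.3 CPM on bare alloy, 2.95, 3.22 and 2.92 on TiB2 and 4.95, 3.57 and 4.43 on the HA coating. ITGBL1 fell 15.5-fold over both surfaces (log2 fold change -3.96 ± 0.13, SE; edgeR adjusted p = 3.62e-08). OLFM2, of the same olfactomedin family as MYOC (ENSG00000105088, chromosome 19, 9853718 to 9936515), lay at 35.9, 28.7 and 32 CPM on bare alloy, 2.85, 2.83 and 3.48 on TiB2 and 2.52, 1.49 and 1.98 on the HA coating. OLFM2 fell 13-fold over both surfaces (log2 fold change -3.70 ± 0.17, SE; edgeR adjusted p = 4.40e-07). CCN4, a secreted Wnt target (ENSG00000104415, chromosome 8, 133191039 to 133231690), lay at 197, 176 and 219 CPM on bare alloy, 9.5, 19.3 and 14.5 on TiB2 and 13.9, 11.6 and 27.1 on the HA coating. CCN4 fell 12.4-fold over both surfaces (log2 fold change -3.63 ± 0.26, SE; edgeR adjusted p = 1.13e-05). Bare alloy libraries agreed within a narrow range for all 4 genes, and no coated library came near them. Among the next falls by size, named after their values were seen, were APLN, a peptide ligand of endothelial cells (295 CPM on bare alloy, 44 on TiB2 and 52.3 on the HA coating), NPTX1 (179 CPM on bare alloy, 30.9 on TiB2 and 32.4 on the HA coating), PLPP3, a lipid phosphatase (64.3 CPM on bare alloy, 14.2 on TiB2 and 14 on the HA coating), and CPE, a peptide-processing enzyme (245 CPM on bare alloy, 45.7 on TiB2 and 55.2 on the HA coating).

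Collagen genes fell as a group: 11 of 18 tested fibrillar and network collagens fell and none rose (median -0.96; medians -0.94 on TiB2 and -1.14 on the HA coating). COL14A1, a collagen that binds along fibrils (ENSG00000187955, chromosome 8, 120059780 to 120370917), lay at 208, 223 and 192 CPM on bare alloy, 14.7, 13.9 and 11.9 on TiB2 and 11.4, 14.5 and 8.51 on the HA coating. COL14A1 fell 16.7-fold over both surfaces (log2 fold change -4.06 ± 0.15, SE; edgeR adjusted p = 1.58e-07). COL1A2, the second chain of type I collagen (ENSG00000164692, chromosome 7, 94394895 to 94431227), lay at 3822, 3362 and 3645 CPM on bare alloy, 1067, 1111 and 955 on TiB2 and 1172, 504 and 784 on the HA coating. COL1A2 fell 3.9-fold over both surfaces (log2 fold change -1.96 ± 0.21, SE; edgeR adjusted p = 0.000125). The main chain, COL1A1 (ENSG00000108821, chromosome 17, 50184101 to 50201632), lay at 3404, 2524 and 3241 CPM on bare alloy, 1269, 1389 and 1215 on TiB2 and 1869, 641 and 910 on the HA coating. COL1A1 fell 2.52-fold over both surfaces (log2 fold change -1.33 ± 0.26, SE; edgeR adjusted p = 0.0059). HA replicate 1 was the highest coated library for COL1A1, and HA replicate 2 the lowest. COL5A3, a minor fibrillar chain, fell 5.35-fold on TiB2 and 7.62-fold on the HA coating, and COL12A1, another fibril-associated collagen, 2.51-fold on TiB2 and 4.53-fold on the HA coating. The basement membrane chains COL4A1 and COL4A2 did not pass, at log2 fold changes of -0.20 and -0.02 (edgeR adjusted p = 0.505 and 0.972).

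Genes for processing and crosslinking of collagen moved less, with 4 of 25 tested falling and none rising (2 without bare alloy replicate 3, 10 without the 3 libraries that stand apart). ADAMTS14, which trims procollagen, fell 2.34-fold on TiB2 and 3.04-fold on the HA coating (log2 fold change -1.42 ± 0.16, SE; edgeR adjusted p = 0.000217), and PCOLCE, an enhancer of that trimming, fell 1.8-fold on TiB2 and 2.33-fold on the HA coating (log2 fold change -1.04 ± 0.18, SE; edgeR adjusted p = 0.00265). ADAMTS2 and FKBP10 also fell (-0.88 and -0.64 on the log2 scale), and both lost their calls without bare alloy replicate 3 (edgeR adjusted p = 0.0504 and 0.0543).

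Matrix glycoproteins and proteoglycans followed the collagens, with 16 of 34 tested falling and 2, LUM and CCN3, rising (median -0.91; 1 rise without any 1 bare alloy library and 4 without the 3 libraries). ASPN, a small leucine-rich proteoglycan, lay at 4.74, 6 and 5.44 CPM on bare alloy, 0.126, 0 and 0 on TiB2 and 0.208, 0.047 and 0.12 on the HA coating. ASPN fell 72.5-fold over both surfaces (log2 fold change -6.18 ± 0.59, SE; edgeR adjusted p = 6.75e-05). Without TiB2 replicate 1, the only TiB2 library above 0, the log2 fold change was -8.41, so the size of this fall is uncertain. OGN, a proteoglycan of the same kind, lay at 1.56, 1.47 and 1.24 CPM on bare alloy, 0.0787, 0.186 and 0.109 on TiB2 and 0.0958, 0.282 and 0.0601 on the HA coating. OGN fell 10.4-fold over both surfaces (log2 fold change -3.38 ± 0.46, SE; edgeR adjusted p = 0.000679). Both were close to the detection floor on the coated surfaces. MFAP4, a microfibril protein, lay at 31.1, 23.2 and 24 CPM on bare alloy, 4.8, 4.82 and 5.35 on TiB2 and 3.91, 3.13 and 2.67 on the HA coating. MFAP4 fell 6.48-fold over both surfaces (log2 fold change -2.70 ± 0.15, SE; edgeR adjusted p = 2.19e-06). DCN, decorin, did not pass, at a log2 fold change of -0.05 (edgeR adjusted p = 0.877).

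Of matrix proteases and their inhibitors 6 of 24 tested fell and 3 rose (5 rises without the 3 libraries). TIMP3, a matrix-bound metalloproteinase inhibitor (ENSG00000100234, chromosome 22, 32801705 to 32863041), lay at 136, 116 and 119 CPM on bare alloy, 15.5, 15.4 and 14.8 on TiB2 and 17.9, 8.27 and 14.9 on the HA coating. TIMP3 fell 8.56-fold over both surfaces (log2 fold change -3.10 ± 0.19, SE; edgeR adjusted p = 3.48e-06). PLAT lay at 23.1, 27.4 and 24 CPM on bare alloy, 252, 182 and 204 on TiB2 and 139, 99.4 and 121 on the HA coating. PLAT rose 6.43-fold over both surfaces (log2 fold change 2.69 ± 0.17, SE; edgeR adjusted p = 3.86e-06). PLAT and TIMP3 thus moved in opposite directions, each with all 6 coated libraries on 1 side, but the list holds no such split of proteases and inhibitors. MMP16, a membrane-bound metalloproteinase, fell 3.18-fold on TiB2 and 2.77-fold on the HA coating (log2 fold change -1.57 ± 0.24, SE; edgeR adjusted p = 0.00124).

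Osteoblast genes were split. Of 20 tested members of the osteoblast list 3 rose and 4 fell (5 and 7 without the 3 libraries). ALPL, the alkaline phosphatase of bone (ENSG00000162551, chromosome 1, 21509397 to 21578410), lay at 1.9, 1.1 and 2.18 CPM on bare alloy, 16.2, 11.6 and 11 on TiB2 and 16, 8.65 and 8.39 on the HA coating. ALPL rose 6.92-fold over both surfaces (log2 fold change 2.79 ± 0.31, SE; edgeR adjusted p = 0.000183). BMP2, a bone-inducing growth factor (ENSG00000125845, chromosome 20, 6767686 to 6780246), lay at 0.165, 0.188 and 0.33 CPM on bare alloy, 5.06, 1.75 and 4.67 on TiB2 and 3.9, 2.85 and 5.19 on the HA coating. BMP2 rose 17-fold over both surfaces (log2 fold change 4.08 ± 0.45, SE; edgeR adjusted p = 0.000172). By surface the folds were 7.5-fold on TiB2 and 6.39-fold on the HA coating for ALPL and 16.6-fold on TiB2 and 17.3-fold on the HA coating for BMP2. TNFRSF11B, or osteoprotegerin, which blocks osteoclast formation (ENSG00000164761, chromosome 8, 118923557 to 118951885), lay at 166, 164 and 140 CPM on bare alloy, 714, 526 and 653 on TiB2 and 1015, 1296 and 1342 on the HA coating. TNFRSF11B rose 5.6-fold over both surfaces (log2 fold change 2.48 ± 0.16, SE; edgeR adjusted p = 5.69e-06). GJA1, the gap junction protein of bone cells (ENSG00000152661, chromosome 6, 121435595 to 121449727), lay at 113, 132 and 119 CPM on bare alloy, 27.6, 21.5 and 29.9 on TiB2 and 24.4, 30.9 and 33.8 on the HA coating. GJA1 fell 4.34-fold over both surfaces (log2 fold change -2.12 ± 0.14, SE; edgeR adjusted p = 5.01e-06). SPARC, a collagen-binding bone protein (ENSG00000113140, chromosome 5, 151661096 to 151686975), lay at 4370, 3907 and 3733 CPM on bare alloy, 2457, 2270 and 2467 on TiB2 and 1834, 1431 and 1952 on the HA coating. SPARC fell 1.96-fold over both surfaces (log2 fold change -0.97 ± 0.13, SE; edgeR adjusted p = 0.000702).

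RUNX2, a master transcription factor of osteoblasts, lay at 2.69, 2.15 and 2.08 CPM on bare alloy, 3.42, 4.16 and 3.38 on TiB2 and 4.12, 3.29 and 2.13 on the HA coating and did not pass (log2 fold change 0.56 ± 0.24, SE; edgeR adjusted p = 0.132). The osteopontin gene SPP1 lay at 51.9, 15.7 and 15.3 CPM on bare alloy, 15.9, 14.5 and 16.4 on TiB2 and 49.6, 46.1 and 46.3 on the HA coating, with bare alloy replicate 1 at the level of the HA libraries and the other 2 at that of TiB2. It did not pass with all 9 libraries (log2 fold change -0.02 ± 0.33, SE; edgeR adjusted p = 0.973), and without bare alloy replicate 1 the mean of both surfaces was above bare alloy (log2 fold change 0.80; edgeR adjusted p = 0.00622), with all HA libraries above the 2 that remained and TiB2 at their level. BGLAP, osteocalcin, lay at 0.165, 0.266 and 0.181 CPM on bare alloy, 0.189, 0.216 and 0.14 on TiB2 and 0.0958, 0.047 and 0.255 on the HA coating and was low everywhere (edgeR adjusted p = 0.756). Both SP7 and IBSP had too few counts to be tested.

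Among mineral and osteocyte genes 1 of 11 tested rose and 3 fell (2 rises without TiB2 replicate 2). PDPN, a surface protein of young osteocytes, rose 1.91-fold on TiB2 and 1.59-fold on the HA coating (log2 fold change 0.80 ± 0.13, SE; edgeR adjusted p = 0.00172). MGP, an inhibitor of mineral formation, lay at 2.03, 1.57 and 2.75 CPM on bare alloy, 0.252, 0.263 and 0.28 on TiB2 and 0.543, 0.486 and 0.886 on the HA coating. MGP fell 5.12-fold over both surfaces (log2 fold change -2.36 ± 0.29, SE; edgeR adjusted p = 0.000348). PHEX, an osteocyte peptidase of phosphate control, fell 2.42-fold on TiB2 and 1.49-fold on the HA coating (log2 fold change -0.93 ± 0.17, SE; edgeR adjusted p = 0.00361). ANKH, a pyrophosphate exporter, fell by a log2 fold change of -0.51, a call lost without any 1 of bare alloy replicates 1, 2 and 3 (edgeR adjusted p = 0.0502 to 0.0792).

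BMP and TGF-beta genes fell more often than they rose, 11 against 2 of 33 tested (4 rises without the 3 libraries). The BMP-binding antagonists CHRD and CHRDL1 fell with log2 fold changes of -1.84 ± 0.40 and -1.56 ± 0.09, SE (edgeR adjusted p = 0.0104 and 2.19e-06). CHRDL1 lay at 130, 132 and 133 CPM on bare alloy, 52.4, 49.8 and 49.3 on TiB2 and 39.5, 38.2 and 40.1 on the HA coating. ID4 and SMAD6, which BMP signals induce, fell too (-1.68 and -1.35; edgeR adjusted p = 0.000308 and 0.00137). In the Wnt list 6 of 27 tested fell and 1 rose (2 rises without bare alloy replicate 1, any 1 HA library or the 3 libraries). WNT7B, a ligand, was the rise, 3.11-fold on TiB2 and 3.73-fold on the HA coating (log2 fold change 1.77 ± 0.26, SE; edgeR adjusted p = 0.00112), and WNT5B, a ligand of the non-canonical arm, fell 1.82-fold on TiB2 and 2.39-fold on the HA coating (log2 fold change -1.06 ± 0.19, SE; edgeR adjusted p = 0.00298). The secreted inhibitors SFRP2 and NOTUM fell from low levels (-1.60 and -1.64). SFRP2 lost its call without bare alloy replicate 2 or 3 (edgeR adjusted p = 0.104 and 0.0604), and NOTUM without replicate 1 or 2 (0.0688 and 0.105).

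Of integrins and focal adhesion genes 6 of 26 tested fell and 2 rose (5 rises without the 3 libraries). The collagen-binding receptors ITGA11, ITGA1 and DDR2 all fell: ITGA11 lay at 364, 335 and 360 CPM on bare alloy, 156, 168 and 150 on TiB2 and 123, 68.5 and 42.9 on the HA coating (log2 fold change -1.67 ± 0.24, SE; edgeR adjusted p = 0.000925), and DDR2 at 741, 851 and 774 CPM on bare alloy, 350, 370 and 379 on TiB2 and 296, 347 and 223 on the HA coating. DDR2 fell 2.42-fold over both surfaces (log2 fold change -1.28 ± 0.14, SE; edgeR adjusted p = 0.000152). ITGA1 fell 2.23-fold on TiB2 and 2.4-fold on the HA coating. Among SRF and YAP targets 7 of 22 tested fell and 1 rose (2 rises without bare alloy replicate 1 or the 3 libraries), with TPM1, an actin-binding protein, 2.02-fold on TiB2 and 1.88-fold on the HA coating lower and LATS2, a kinase of the Hippo pathway, 1.75-fold on TiB2 and 2.27-fold on the HA coating lower. CDH5, an endothelial cadherin (ENSG00000179776, chromosome 16, 66366622 to 66404782), was the only member of the endothelial list that was shared (2 fell without HA replicate 2), at 28, 20.5 and 26.5 CPM on bare alloy, 2.8, 3.71 and 2.78 on TiB2 and 3.53, 1.9 and 1.25 on the HA coating (log2 fold change -3.25 ± 0.26, SE; edgeR adjusted p = 2.24e-05), while VWF in that list was at 0.0958 CPM on bare alloy, 0.227 on TiB2 and 0.0951 on the HA coating.

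Some antiviral genes fell, and 19 of the 30 tested were not shared. Summed over the list, CPM ranged from 14196 to 15603 on bare alloy and from 6780 to 14335 on the coated surfaces. Of 30 tested interferon-stimulated genes 11 fell and none rose (median -0.56; medians -0.82 on TiB2 and -0.28 on the HA coating; 20 fell without the 3 libraries that stand apart). IFI44L lay at 615, 697 and 578 CPM on bare alloy, 149, 126 and 202 on TiB2 and 252, 456 and 248 on the HA coating. IFI44L fell 2.8-fold over both surfaces (log2 fold change -1.48 ± 0.21, SE; edgeR adjusted p = 0.000757). MX1, a GTPase that blocks viruses, lay at 1465, 1277 and 1289 CPM on bare alloy, 654, 527 and 694 on TiB2 and 837, 858 and 806 on the HA coating. MX1 fell 1.86-fold over both surfaces (log2 fold change -0.90 ± 0.12, SE; edgeR adjusted p = 0.000722). OAS2, a sensor of double-stranded RNA, lay at 458, 427 and 407 CPM on bare alloy, 216, 190 and 239 on TiB2 and 250, 260 and 201 on the HA coating. OAS2 fell 1.91-fold over both surfaces (log2 fold change -0.93 ± 0.12, SE; edgeR adjusted p = 0.000563). In all 3 genes TiB2 replicate 2 was the lowest TiB2 library and the HA libraries lay nearer to bare alloy in the mean. IFI6, an antiviral membrane protein, fell 2.98-fold on TiB2 and 1.76-fold on the HA coating (log2 fold change -1.20 ± 0.15, SE; edgeR adjusted p = 0.000353). MHC class I and antigen processing genes had 3 of 15 tested lower and none higher. That count was 1 without bare alloy replicate 1 or 2, 0 without replicate 3, and 6 without HA replicate 3 or the 3 libraries. HLA-C, HLA-E and ERAP1 fell by log2 fold changes of -0.74, -0.50 and -0.59. HLA-C lost its call without bare alloy replicate 3 (edgeR adjusted p = 0.0554), and HLA-E and ERAP1 without any 1 bare alloy library (0.0585 to 0.0769).

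Complement genes fell in 8 of 16 tested cases and rose in 1 (none rose without bare alloy replicate 3 and 2 without the 3 libraries). The count of falls was 2 without bare alloy replicate 1 or 3, 4 without bare alloy replicate 2 or TiB2 replicate 1, and 5 without TiB2 replicate 2. CLU, clusterin, which binds the terminal complex, lay at 930, 733 and 784 CPM on bare alloy, 329, 288 and 275 on TiB2 and 195, 124 and 220 on the HA coating (log2 fold change -1.82 ± 0.17, SE; edgeR adjusted p = 5.88e-05), and SERPING1, the C1 inhibitor, fell 2.66-fold on TiB2 and 1.93-fold on the HA coating (log2 fold change -1.18 ± 0.16, SE; edgeR adjusted p = 0.00076).

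Cell division genes rose almost throughout. In the G2 and M phase list 24 of 26 tested rose and none fell (median 1.03; medians 0.88 on TiB2 and 1.20 on the HA coating), while 23 of 26 G1 and S phase genes did so (median 0.81; medians 0.70 on TiB2 and 0.92 on the HA coating). With 1 library left out these counts were 22 to 26 and 20 to 24. BUB1B, a spindle checkpoint kinase (ENSG00000156970, chromosome 15, 40161023 to 40221123), lay at 28.9, 30.7 and 34.2 CPM on bare alloy, 82.5, 67.3 and 63 on TiB2 and 75.1, 88.5 and 66.3 on the HA coating. BUB1B rose 2.36-fold over both surfaces (log2 fold change 1.24 ± 0.14, SE; edgeR adjusted p = 0.000202). AURKA, a mitotic kinase (ENSG00000087586, chromosome 20, 56369389 to 56392295), lay at 28.7, 25.9 and 25.5 CPM on bare alloy, 63, 55 and 47.4 on TiB2 and 63, 64.4 and 78.9 on the HA coating. AURKA rose 2.31-fold over both surfaces (log2 fold change 1.21 ± 0.13, SE; edgeR adjusted p = 0.000175). TTK and AURKB, kinases of chromosome attachment, rose 2.24-fold on TiB2 and 3.04-fold on the HA coating and 2.15-fold on TiB2 and 2.53-fold on the HA coating. TiB2 and HA libraries overlapped for all 4 genes. CDC7, the kinase that fires replication origins, lay at 12.9, 15.3 and 13.2 CPM on bare alloy, 34, 28.1 and 30.6 on TiB2 and 26, 43 and 39.2 on the HA coating. CDC7 rose 2.42-fold over both surfaces (log2 fold change 1.27 ± 0.17, SE; edgeR adjusted p = 0.000603). CDT1, which loads the replicative helicase, and TYMS, thymidylate synthase, rose 2.27-fold on TiB2 and 2.08-fold on the HA coating and 2.01-fold on TiB2 and 2.17-fold on the HA coating, and E2F1, a transcription factor of S phase entry, 1.85-fold on TiB2 and 2.34-fold on the HA coating. Replication-dependent histone genes went the other way, 6 of 11 tested falling and none rising (median -1.37). H2AC6 lay at 63.8, 64 and 63.7 CPM on bare alloy, 16.2, 18.2 and 24.8 on TiB2 and 19.4, 24.8 and 33.4 on the HA coating (log2 fold change -1.5 ± 0.17, SE; edgeR adjusted p = 0.000214), and H2BC21 and H2BC4 fell by 1.74 and 1.53 on the log2 scale. Most histone mRNAs lack a poly(A) tail, and how RNA was selected is not given in the sources used here. Ribosomal RNA rows also took a larger share in every bare alloy library (0.617% to 6.48%) than in the coated libraries (0.0832% to 0.197%). Whether the fall of histone genes goes with that share was not tested.

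Cholesterol synthesis genes and SREBP targets rose in 20 of 33 tested cases and fell in 1, SREBF1, which was not called without any 1 bare alloy library (median 0.89; medians 1.04 on TiB2 and 0.95 on the HA coating). HMGCS1, which makes HMG-CoA (ENSG00000112972, chromosome 5, 43287470 to 43313512), lay at 60, 75.7 and 62.9 CPM on bare alloy, 258, 250 and 281 on TiB2 and 248, 386 and 385 on the HA coating. HMGCS1 rose 4.52-fold over both surfaces (log2 fold change 2.18 ± 0.17, SE; edgeR adjusted p = 2.24e-05). FDPS, which makes farnesyl diphosphate (ENSG00000160752, chromosome 1, 155308748 to 155320666), lay at 89.5, 98 and 90.8 CPM on bare alloy, 282, 277 and 297 on TiB2 and 245, 271 and 436 on the HA coating. FDPS rose 3.24-fold over both surfaces (log2 fold change 1.70 ± 0.18, SE; edgeR adjusted p = 0.000148). EBP and ACAT2, other enzymes of the pathway, rose 3.09-fold on TiB2 and 4.09-fold on the HA coating and 2.92-fold on TiB2 and 3.83-fold on the HA coating. All 4 enzymes were more than 2-fold above the highest bare alloy library in every coated library.

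NRF2 and antioxidant genes rose in 14 of 27 tested cases and none fell (median 0.70). PGD, a pentose phosphate enzyme that makes NADPH (ENSG00000142657, chromosome 1, 10398592 to 10419808), lay at 130, 120 and 121 CPM on bare alloy, 410, 357 and 360 on TiB2 and 275, 221 and 300 on the HA coating. PGD rose 2.55-fold over both surfaces (log2 fold change 1.35 ± 0.13, SE; edgeR adjusted p = 8.19e-05). NQO1, a quinone reductase (ENSG00000181019, chromosome 16, 69706996 to 69726584), lay at 113, 127 and 115 CPM on bare alloy, 316, 287 and 306 on TiB2 and 188, 248 and 324 on the HA coating. NQO1 rose 2.35-fold over both surfaces (log2 fold change 1.23 ± 0.17, SE; edgeR adjusted p = 0.000603). TKT and TALDO1, of the same sugar pathway, rose 2.37-fold on TiB2 and 1.7-fold on the HA coating and 1.72-fold on TiB2 and 1.9-fold on the HA coating. Among metal genes 6 of 16 tested rose and 1 fell. None fell without any 1 bare alloy library or TiB2 replicate 1 or 3, and 2 fell without any 1 HA library or the 3 libraries. Of these genes SLC39A8, a zinc and manganese importer, rose 3.12-fold on TiB2 and 2.8-fold on the HA coating, and the metal reductases STEAP2 and STEAP1 2.51-fold on TiB2 and 1.99-fold on the HA coating and 1.98-fold on TiB2 and 2.48-fold on the HA coating. TFRC, the transferrin receptor, rose 1.63-fold over both surfaces, a call lost without any 1 bare alloy library or TiB2 replicate 1 (edgeR adjusted p = 0.0554 to 0.103).

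Glycolysis and hypoxia genes rose in 8 of 30 tested cases with no falls (5 without bare alloy replicate 2 or 3). HK2, hexokinase of the first step, lay at 141, 149 and 149 CPM on bare alloy, 388, 410 and 322 on TiB2 and 295, 225 and 191 on the HA coating. HK2 rose 2.04-fold over both surfaces (log2 fold change 1.03 ± 0.15, SE; edgeR adjusted p = 0.00122). ALDOC and PFKFB4 rose 4.39-fold on TiB2 and 2.67-fold on the HA coating and 1.95-fold on TiB2 and 2.24-fold on the HA coating, and GPI 1.63-fold on TiB2 and 1.71-fold on the HA coating. ATF4 and unfolded protein response genes had 7 of 26 rises and 2 falls. The count of rises was 4 without bare alloy replicate 1 or 2, 3 without replicate 3 and 12 without the 3 libraries. None fell without bare alloy replicate 1 or 2, and 1 without replicate 3. ATF3 and TRIB3, stress-induced regulators, rose 2.66-fold on TiB2 and 2.26-fold on the HA coating and 2.19-fold on TiB2 and 2.03-fold on the HA coating, and SLC7A11, the cystine importer, 2.33-fold on TiB2 and 1.76-fold on the HA coating. Of p53 targets 5 of 22 rose and 1 fell (9 rises without HA replicate 1 and 8 without HA replicate 3), with TNFRSF10A, a death receptor, 1.69-fold on TiB2 and 2.06-fold on the HA coating higher.

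The remaining groups differed in their share of shared genes. Immediate early and MAPK feedback genes stood at 22.7% upward and 13.6% downward, and nuclear and intron-retaining long RNAs at 7.69% and 30.8%. Over all tested genes the shares were 6.89% and 7.54%. The other lists given here ranged from 0% to 11.8% upward and from 0% to 10% downward. Immediate early and MAPK feedback genes had 5 rises and 3 falls of 22 tested (3 rises without bare alloy replicate 3 or TiB2 replicate 1, 8 without HA replicate 2, 9 without the 3 libraries; 1 fall without bare alloy replicate 1), led by IER3, a stress-induced survival gene, at 23.6, 19.5 and 22.9 CPM on bare alloy, 134, 102 and 154 on TiB2 and 84.5, 54.2 and 144 on the HA coating. IER3 rose 5.04-fold over both surfaces (log2 fold change 2.33 ± 0.28, SE; edgeR adjusted p = 0.000322). In the Notch list the ligand DLL1 rose 4.49-fold on TiB2 and 2.92-fold on the HA coating (log2 fold change 1.86 ± 0.18, SE; edgeR adjusted p = 6.63e-05) and the ligand JAG1 fell 1.51-fold on TiB2 and 1.74-fold on the HA coating (log2 fold change -0.70 ± 0.13, SE; edgeR adjusted p = 0.00374), of 14 tested (2 falls without bare alloy replicate 1 or HA replicate 1 and 3 without the 3 libraries). Of 17 glucocorticoid-responsive genes 2, PDK4 and FKBP5, rose and 1, MYOC, fell, under the dexamethasone that all groups shared (5 rises and 2 falls without the 3 libraries). FKBP5, a chaperone partner of the glucocorticoid receptor, had a log2 fold change of 0.63 ± 0.16, SE (edgeR adjusted p = 0.0233) and lost its call without any 1 bare alloy library or TiB2 replicate 1 or 2 (0.058 to 0.108). PDK4, which diverts pyruvate from oxidation, rose 3.62-fold on TiB2 and 2.12-fold on the HA coating (log2 fold change 1.47 ± 0.30, SE; edgeR adjusted p = 0.00738). Of 10 EGF receptor genes HBEGF, a ligand, rose 1.81-fold on TiB2 and 2.45-fold on the HA coating and 1 fell (none without bare alloy replicate 1 or 2). Of 15 IGF axis genes IGF1R, the receptor, fell 2.08-fold on TiB2 and 2.15-fold on the HA coating and none rose (2 fell without HA replicate 1 or 3 or the 3 libraries). Heat shock chaperones had 2 of 17 higher, HSPD1 and HSPA9, and none lower (1 without bare alloy replicate 1 or 2, none without replicate 3, and 5 without the 3 libraries). Without bare alloy replicate 3 both missed the threshold (edgeR adjusted p = 0.0651 and 0.0948). No tested gene of 26 for oxidative phosphorylation or of 30 for cytosolic ribosomal proteins was shared with all 9 libraries, with medians of 0.34 and 0.23, though 6 ribosomal protein genes rose without HA replicate 1. Of the oxidative phosphorylation genes 3, 2 and 1 rose without HA replicates 1, 2 and 3, and 2 without the 3 libraries. Among nuclear and intron-retaining long RNAs 4 of 13 fell and 1 rose (2 falls without bare alloy replicate 2; no rise without any 1 bare alloy library or TiB2 replicate 1 or 2, and 2 rises without HA replicate 1), with NEAT1, the scaffold of paraspeckles, 1.94-fold on TiB2 and 2.57-fold on the HA coating lower.

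Markers of other cell types were checked beside these lists. Mesenchymal markers were high on all surfaces, at 7906 to 9197 summed CPM on bare alloy and 4041 to 6309 on the coated surfaces, and 5 of 9 fell and 1, THY1, rose. VIM lay at 5788, 6341 and 7176 CPM on bare alloy, 3464, 3927 and 3781 on TiB2 and 4155, 2769 and 4973 on the HA coating. VIM fell 1.67-fold over both surfaces (log2 fold change -0.74 ± 0.17, SE; edgeR adjusted p = 0.0149). T cell markers summed to 0.439 to 6.72 CPM on bare alloy and 0.375 to 8.01 on the coated surfaces, and none of 6 tested was shared. None of 7 macrophage, 3 adipocyte, 3 chondrocyte, 6 epithelial or 3 muscle markers tested was shared. Macrophage and osteoclast markers summed to 69.9 to 82.2 CPM on bare alloy and 58.7 to 95.1 on the coated surfaces. Epithelial markers summed to 143 to 180 CPM on bare alloy and 148 to 219 on the coated surfaces. Some members of both lists were thus expressed on all surfaces, while others were low. CSF1R, a macrophage marker, lay at 0.277 CPM on bare alloy, 0.0619 on TiB2 and 0.396 on the HA coating. EPCAM, an epithelial marker, lay at 0.707 CPM on bare alloy, 0.697 on TiB2 and 0.843 on the HA coating. In RNA from whole cultures, fewer cells with a transcript and less of it per cell cannot be told apart, and the part of the cell division genes' rise in the matrix and chemokine values was not tested.

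How many tested genes differed between the coated surfaces depended on single libraries. The same fit called 67 genes different between the HA coating and TiB2 (0.316% of those tested), 28 higher and 39 lower on the HA coating. Without HA replicate 1 these counts were 1656 and 1558, without HA replicate 2 they were 6 and 4, and DESeq2 gave 345 and 468. All HA libraries lie on one side of the split by T cell genes and ENPEP and all TiB2 libraries on the other, so that surface and split are told apart only through the bare alloy libraries. With the split as a term the counts were 2 and 12. Of the 67 genes 28 were among the 3062 shared genes (0.914%), 13 of the rises and 15 of the falls. A gene that misses this test is not shown to respond alike. POSTN, periostin, a matricellular protein of periosteum (ENSG00000133110, chromosome 13, 37562585 to 37598844), fell on both surfaces, much further on TiB2: it lay at 159, 168 and 156 CPM on bare alloy, 19.8, 18.3 and 16.4 on TiB2 and 80, 88.4 and 84.1 on the HA coating. Its HA libraries lay between the other groups without overlap (HA minus TiB2 2.21 ± 0.13, SE; edgeR adjusted p = 3.85e-05). MMP1, the interstitial collagenase (ENSG00000196611, chromosome 11, 102789401 to 102798160), lay at 3.81, 2.8 and 3.15 CPM on bare alloy, 19.3, 9.79 and 17.2 on TiB2 and 52.3, 65.4 and 204 on the HA coating and rose further on the HA coating (2.79 ± 0.47, SE; edgeR adjusted p = 0.0402). NDP, the Wnt-like ligand norrin, lay at 8.58, 11 and 11.1 CPM on bare alloy, 1.91, 3.11 and 1.88 on TiB2 and 5.53, 5.62 and 8 on the HA coating (1.47 ± 0.25, SE; edgeR adjusted p = 0.0462). TNFRSF11B was higher still on the HA coating (0.95 ± 0.17, SE; edgeR adjusted p = 0.0495), and NT5E, the surface enzyme CD73 that makes adenosine, fell less there (0.89 ± 0.13, SE; edgeR adjusted p = 0.0229). CAV1, the main protein of caveolae, also fell less on the HA coating (0.73 ± 0.12, SE; edgeR adjusted p = 0.0401).

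In the other direction CYP1A1, a monooxygenase of foreign compounds (ENSG00000140465, chromosome 15, 74719542 to 74725536), lay at 12.3, 9.29 and 13.1 CPM on bare alloy, 227, 244 and 201 on TiB2 and 80.9, 49.5 and 86 on the HA coating and rose further on TiB2 (HA minus TiB2 -1.64 ± 0.21, SE; edgeR adjusted p = 0.0166). ELOVL2, an elongase of long fatty acids (ENSG00000197977, chromosome 6, 10980759 to 11044305), lay at 19.8, 19.6 and 18.7 CPM on bare alloy, 86.2, 81.6 and 85.7 on TiB2 and 44.4, 43.5 and 44.9 on the HA coating (-0.93 ± 0.11, SE; edgeR adjusted p = 0.0122). GCLM, a subunit of the first enzyme of glutathione synthesis, lay at 94.8, 104 and 97.4 CPM on bare alloy, 313, 259 and 243 on TiB2 and 138, 146 and 166 on the HA coating (-0.85 ± 0.14, SE; edgeR adjusted p = 0.0401). The rises of all 3 genes were larger on TiB2, with no overlap between the 3 groups. BMPER, a BMP-binding protein, and MASP1, a complement protease, fell further on the HA coating (-1.19 ± 0.20, SE; edgeR adjusted p = 0.0401 for BMPER, and -0.97 ± 0.13, SE; edgeR adjusted p = 0.0169 for MASP1). With 1 library left out POSTN kept its call in all 9 cases. CYP1A1 and ELOVL2 lost it without each TiB2 library, and MASP1 also without HA replicate 2. MMP1, NT5E, BMPER, GCLM and CAV1 lost it without each TiB2 library, HA replicate 2 or bare alloy replicate 2 or 3, and NDP and TNFRSF11B without HA replicate 3 as well. Their adjusted p in these cases reached 0.0786 (ELOVL2) to 0.227 (TNFRSF11B). With the split of libraries as a term POSTN kept its call (edgeR adjusted p = 0.0105) and the other 10 genes did not (0.469 for CYP1A1 to 0.983 for MMP1, TNFRSF11B, NT5E, CAV1 and GCLM).

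**Figure D4:**
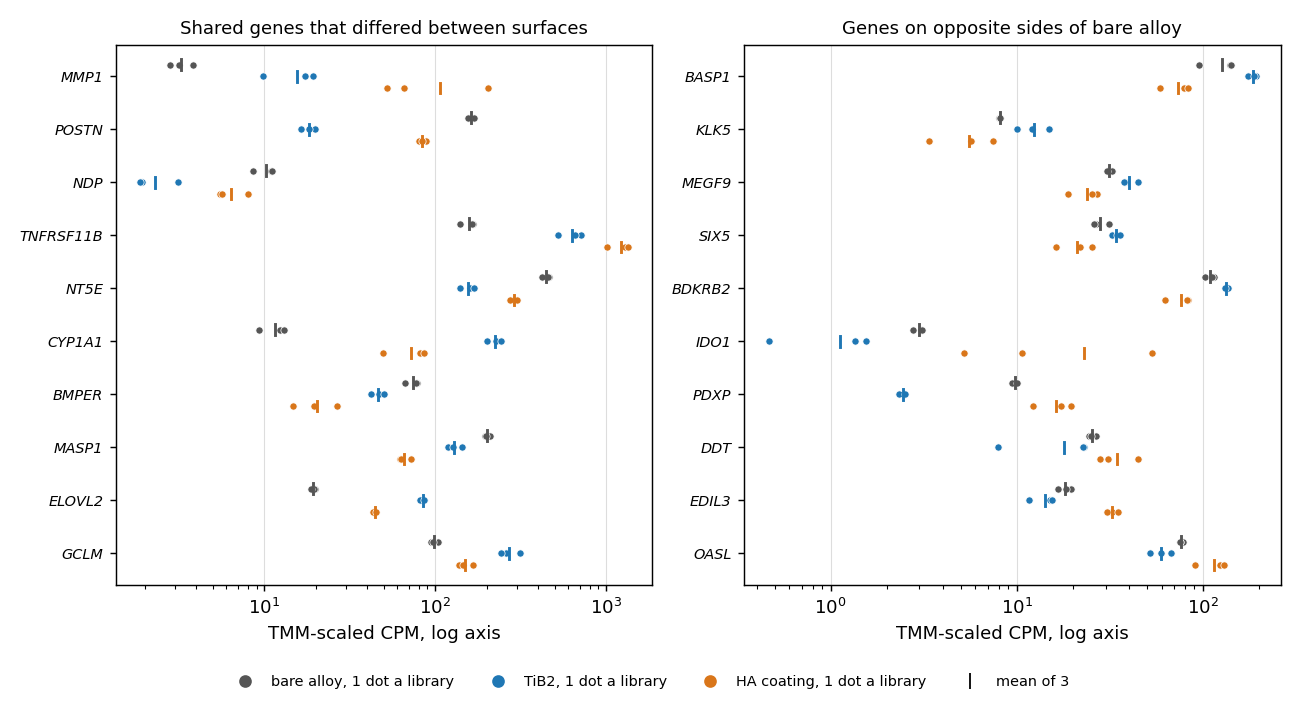
CPM on a log axis of 10 shared genes that differed between the surfaces (left) and 10 genes whose coated surfaces lie on opposite sides of bare alloy (right); each dot is a library and each vertical bar the mean of 3. In POSTN and ELOVL2 the dots of each group lie close together and apart from the other groups, and the HA dots of MMP1 and IDO1 are widely spread.

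Some genes went opposite ways. On 44 tested genes all TiB2 libraries lay above and all HA libraries below the 3 bare alloy libraries, and on 31 the reverse held. These counts ask for a full order of the 3 groups and cannot be set against the number of shared genes. Of the opposed genes 12 passed the test of the difference between surfaces. IDO1, which breaks down tryptophan and answers to interferon (ENSG00000131203, chromosome 8, 39902275 to 39928790), lay at 2.78, 3.05 and 3.08 CPM on bare alloy, 1.35, 0.464 and 1.54 on TiB2 and 5.22, 10.7 and 53.3 on the HA coating (4.36 ± 0.78, SE; edgeR adjusted p = 0.0495), with HA replicate 3 far above the others. PDXP, pyridoxal phosphatase (ENSG00000241360, chromosome 22, 37658723 to 37666932), lay at 9.92, 9.37 and 10 CPM on bare alloy, 2.49, 2.34 and 2.52 on TiB2 and 17.2, 12.2 and 19.6 on the HA coating (2.74 ± 0.20, SE; edgeR adjusted p = 0.000263). EDIL3, an integrin-binding matrix protein, lay at 19.5, 18.3 and 16.6 CPM on bare alloy, 11.7, 15.1 and 15.5 on TiB2 and 32.6, 34.9 and 30.4 on the HA coating (1.21 ± 0.15, SE; edgeR adjusted p = 0.0164). OASL, an interferon-induced gene, lay at 77.9, 74.9 and 75.6 CPM on bare alloy, 59.5, 51.9 and 67.5 on TiB2 and 90.8, 124 and 129 on the HA coating (0.94 ± 0.16, SE; edgeR adjusted p = 0.0415). In the other direction BASP1, a membrane and nuclear protein of growing neurites, lay at 95.4, 140 and 142 CPM on bare alloy, 193, 175 and 189 on TiB2 and 78.7, 58.9 and 83.6 on the HA coating (-1.33 ± 0.18, SE; edgeR adjusted p = 0.0194), and BDKRB2, the bradykinin receptor, at 115, 102 and 112 CPM on bare alloy, 133, 136 and 132 on TiB2 and 83.3, 62.8 and 81.9 on the HA coating (-0.81 ± 0.14, SE; edgeR adjusted p = 0.0423). PDXP kept its call with each library left out. EDIL3 and BASP1 lost theirs without each TiB2 library or HA replicate 2, IDO1 and BDKRB2 also without bare alloy replicate 2 or 3, and OASL without HA replicate 3 as well (adjusted p up to 0.211, that of IDO1). IDO1 stood at 2.82 without HA replicate 3. With the split of libraries as a term PDXP kept its call (edgeR adjusted p = 0.0426) and the other 5 did not (0.88 for EDIL3 to 0.983 for IDO1, OASL and BASP1). KLK5, MEGF9, SIX5 and DDT did not pass.

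Calls near the threshold show what the rule separates. DDX50, an RNA helicase, was just inside it at 57.5, 60.3 and 55.3 CPM on bare alloy, 79, 68.3 and 71.7 on TiB2 and 65.8, 96.6 and 112 on the HA coating (log2 fold change 0.50 ± 0.16, SE). PTPRU, a receptor phosphatase, was just outside it at 48.4, 43.4 and 51.6 CPM on bare alloy, 35.7, 36 and 34.2 on TiB2 and 41.5, 22 and 27.1 on the HA coating (log2 fold change -0.55 ± 0.17, SE). Both had all 6 coated libraries on 1 side. DDX50 kept its call in only 2 of 9 cases with 1 library left out. A further 172 genes passed the test upward and 194 downward without all 6 coated libraries on 1 side, among them the interferon-stimulated ISG15 and IFI27 (log2 fold changes -0.93 and -1.03; edgeR adjusted p = 0.0131 and 0.00873), named after their values were seen.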

How the data were processed

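The authors deposited 1 table holding, for 36385 Ensembl genes on GRCh38, raw counts and FPKM in each library. The deposited FPKM values, scaled to gene length and depth, served for a minimum level and for alternatives. Per the submitters' processing notes the tools were cutadapt 2.10, HISAT2 2.2.1, StringTie 2.1.4, featureCounts 2.0.1 and limma, with no roles given, and the sources used here do not give strand use or the handling of multiply mapped reads. Groups came from the labels. Counts were filtered with filterByExpr (21213 genes), scaled by TMM and fitted with edgeR 4.0.16's quasi-likelihood test (R 4.3.3) over all 9 libraries with 1 term per surface. Two-sided tests set the mean of TiB2 and the HA coating, and each surface alone, against bare alloy, and the HA coating against TiB2. Benjamini-Hochberg adjustment ran over all tested genes, with a threshold of 0.05. Each SE is the absolute log2 fold change over the root of its F statistic. The fit was tested on simulated data.

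The members, the 44 gene lists and the tests were chosen with earlier results of these data known. Named genes were the 12 rises and 12 falls largest on the weaker surface with a mean FPKM of at least 5 on the higher side, up to 4 shared members per list, 8 osteogenic genes, and 5 genes each way for surface differences and opposed genes. Alternatives were the coated libraries as 1 group, DESeq2 1.42.0, RLE scaling, no filter, a mean FPKM of at least 5, limma 3.58.1 on log2(FPKM + 1) and log2(FPKM + 0.1), a replicate block, the split of libraries by T cell genes as a term, a GC and length offset, and each library left out. Promoter sequences came from RefSeq and were matched by symbol. No symbol was given for 9638 rows, and 333 rows repeat a symbol.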

Additional observations from a re-analysis of the deposited data

Results flagged for a closer look

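The coated surfaces parted from each other, under the same comparison with bare alloy, on the genes given here. By the test of the difference itself (HA coating minus TiB2, log2 fold change, edgeR adjusted p under 0.05), the HA coating was above TiB2 among shared genes for MMP1 (2.79; 1.92 to 3.11 with 1 library left out), POSTN (2.21; 2.14 to 2.27), NDP (1.47), TNFRSF11B (0.95), NT5E (0.89) and CAV1 (0.73). It was below TiB2 for CYP1A1 (-1.64), BMPER (-1.19), MASP1 (-0.97), ELOVL2 (-0.93) and GCLM (-0.85). Of these POSTN kept its call with each library left out and the other 10 did not. With the split of libraries by T cell genes and ENPEP as a term, which no surface but bare alloy crosses, POSTN alone kept it (edgeR adjusted p = 0.0105). With the replicate block POSTN and CYP1A1 kept it (0.00105 and 0.0457), and the others did not (0.0559 to 0.127).

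Genes that the surfaces moved to opposite sides of bare alloy were BASP1 (-1.33), KLK5 (-1.16), MEGF9 (-0.76), SIX5 (-0.69) and BDKRB2 (-0.81), with TiB2 above and the HA coating below. With TiB2 below and the HA coating above they were IDO1 (4.36; 2.82 to 4.82 with 1 library left out), PDXP (2.74; 2.58 to 2.90), DDT (0.95), EDIL3 (1.21) and OASL (0.94). The difference passed its test for BASP1, BDKRB2, IDO1, PDXP, EDIL3 and OASL, and not for KLK5, MEGF9, SIX5 and DDT (edgeR adjusted p = 0.106, 0.0763, 0.124 and 0.219). Sides alone chose these genes, so their lying on opposite sides is a description. PDXP alone kept its call with the split as a term (edgeR adjusted p = 0.0426) and with the replicate block (0.0016), where the other 5 stood at 0.0559 to 0.102.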

How the results depend on the processing

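With the coated libraries as 1 group 1284 and 1354 genes were higher and lower and 1224 and 1317 were shared. DESeq2 gave 2284 and 2236, 1827 and 1901 shared, and 345 and 468 between the surfaces (HA coating higher and lower, as below). RLE scaling gave 21 and 35 between surfaces. Without a filter on low counts there were 1188 and 1325, 1147 and 1244 shared, and 10 and 12 between surfaces. Restricting the test to genes with a mean FPKM of 5 or more gave 756 and 784, 683 and 708 shared, 13 and 28 between surfaces, and 16 and 9 opposed. Limma gave 1638 lower with + 1, and with + 0.1 1889 and 1492, with 19 and 30 between surfaces. The GC and length offset gave 2512 and 2226, 2242 and 1949 shared, and 60 and 79 between surfaces. The split of libraries as a term gave 1334 and 1379, 1172 and 1274 shared, and 2 and 12 between surfaces. Without the 3 libraries that stand apart there were 2043 and 2276, 2005 and 2097 shared, 41 and 147 between surfaces, and 396 and 342 opposed. The causes were not tested.

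A fit with the replicate block gave 1244 and 1450 genes higher and lower, 1166 and 1342 shared, and 4 and 4 between surfaces. Libraries with the same number had deviations correlated at -0.13 to 0.11, so the numbers were not taken as pairs. With 1 library left out, genes higher ranged from 803 to 2481 and lower from 938 to 2566, shared from 794 to 1935 and from 914 to 2007, between surfaces from 2 to 1656 and from 1 to 1558, and opposed from 63 to 251 and from 41 to 210. The highest counts between surfaces were without HA replicate 1, and those without HA replicate 2 were 6 and 4. With 1 library left out SPP1 ranged from -0.32 to 0.80, against -0.02 with all 9; it stood at 0.80 without bare alloy replicate 1 and at 0.84 without the 3 libraries. No named gene past the threshold changed direction under any alternative run. Depth limits genes near 0.045 CPM.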

Other observations

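Gene groups chosen after their values were seen are described by their members alone. Among 7 targets of the aryl hydrocarbon receptor, a sensor of flat aromatic compounds, 4 rose and none fell. ALDH3A1, of this group, lost its call without any 1 bare alloy library (edgeR adjusted p = 0.0691 to 0.153) and without any 1 TiB2 library (0.0596 to 0.0709). CYP1B1, a second monooxygenase, lay at 42.8, 44.2 and 47.3 CPM on bare alloy, 192, 190 and 166 on TiB2 and 108, 91.5 and 111 on the HA coating (log2 fold change 1.62 ± 0.12, SE; edgeR adjusted p = 1.40e-05), and TIPARP, an enzyme that modifies the receptor, rose 1.6-fold on TiB2 and 1.47-fold on the HA coating (log2 fold change 0.62 ± 0.11, SE; edgeR adjusted p = 0.00286). AHRR, its repressor, lay at 130 CPM on bare alloy, 147 on TiB2 and 125 on the HA coating and did not pass (edgeR adjusted p = 0.861). Of 10 tested PPAR targets and lipid droplet genes 4 rose and none fell. HILPDA, of this group, lost its call without any 1 bare alloy library (edgeR adjusted p = 0.0658 to 0.0868). PLIN2 lay at 178, 177 and 192 CPM on bare alloy, 1288, 1476 and 1783 on TiB2 and 961, 865 and 1747 on the HA coating (log2 fold change 2.88 ± 0.25, SE; edgeR adjusted p = 3.28e-05), while PLIN4, another droplet protein, lay at 0.569 CPM on bare alloy, 0.504 on TiB2 and 0.298 on the HA coating and did not pass.

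Of 13 tested prostaglandin genes 3 rose and 2 fell. PTGES3, of this group, lost its call without any 1 bare alloy library (edgeR adjusted p = 0.0743 to 0.0969). PLA2G4A, the phospholipase that frees arachidonic acid, lay at 117, 126 and 115 CPM on bare alloy, 417, 279 and 376 on TiB2 and 421, 665 and 522 on the HA coating (log2 fold change 1.87 ± 0.18, SE; edgeR adjusted p = 8.04e-05), and PTGS2 rose beside it. The receptors PTGFR and PTGER2 fell: PTGFR lay at 189, 218 and 183 CPM on bare alloy, 44.1, 37.5 and 43.1 on TiB2 and 52.6, 84 and 59.1 on the HA coating (log2 fold change -1.92 ± 0.15, SE; edgeR adjusted p = 1.61e-05), and PTGER2 fell 2.61-fold on TiB2 and 1.76-fold on the HA coating (log2 fold change -1.10 ± 0.14, SE; edgeR adjusted p = 0.000397). PTGES, the inducible synthase of prostaglandin E2, did not pass (edgeR adjusted p = 0.491). Olfactomedin family genes fell in 4 of 7 tested cases, MYOC, OLFM2, OLFML2B and OLFML3, and none rose. OLFML2B lay at 21.6, 20 and 18.4 CPM on bare alloy, 3.31, 3.94 and 4.67 on TiB2 and 3.34, 1.85 and 1.65 on the HA coating (log2 fold change -2.73 ± 0.21, SE; edgeR adjusted p = 1.81e-05), and OLFM1 at 83.6 CPM on bare alloy, 113 on TiB2 and 82.3 on the HA coating without passing.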
